A study of Mus musculus with 24 samples.

Results

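The genes described here are 8 genes of cholesterol synthesis and uptake: Hmgcs1, Mvk, Idi1, Fdft1, Sqle, Hsd17b7, Stard4 and Insig1. They were found by their gene name among the probes of the array that are not controls, which gave 14 of 55681 probes. The samples were primary murine alveolar type II cells, the surfactant-making cells of the lung alveolus, grown at an air-liquid interface for 3 days. Total RNA of each sample was measured on 1 one-colour (Cy3) Agilent mouse array, 24 arrays in 6 groups of 4. Both donors release hydrogen sulfide (H2S): NaHS quickly and GYY4137 slowly. In the NaHS experiment, cells received 100 µM NaHS for 6 h, the culture medium DMEM as vehicle for 6 h, 100 µM NaHS for 24 h, or vehicle for 24 h. In the GYY4137 experiment, cells received 100 µM GYY4137 for 24 h in 85% O2 (hyperoxia) or 100 µM GYY4137 for 24 h in 21% O2 (normoxia), so both oxygen groups carried the donor. None of the 6 groups held cells at 85% O2 without a donor. Strain, age and genotype are not given in the labels, and the labels do not say whether replicates came from separate cultures or animals, so each p-value measures only the spread between these samples.

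Cells make cholesterol from acetyl-CoA through the mevalonate pathway and take it up from lipoproteins. When sterols in the endoplasmic reticulum are low, SCAP carries the transcription factor SREBP-2 to the Golgi, where it is cut and released to turn on the genes of synthesis and uptake, and INSIG proteins hold SCAP back when sterols are plentiful. In alveolar type II cells cholesterol is also a component of surfactant, beside the phospholipids. Of the 8 genes, Hmgcs1 encodes HMG-CoA synthase, Mvk mevalonate kinase, Idi1 isopentenyl diphosphate isomerase, Fdft1 squalene synthase, Sqle squalene epoxidase and Hsd17b7 a 3-ketosteroid reductase of the late pathway. Stard4 encodes a carrier of cholesterol between membranes, and Insig1 is both a brake on SCAP and itself a target of SREBP.

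Promoter windows from RefSeq on GRCm38.p6, 250 bases before to 50 after a gene's start, were matched for 5 of the 8 genes. They were searched on both strands for TCACNCCAC, a form of the sterol regulatory element that SREBP binds, and for CCAAT, the box bound by NF-Y. The motifs do not overlap each other in these windows. TCACNCCAC was found in 1 of the 5 windows, that of Hmgcs1, 137 bases before its start, against 1.242% of all 32851 promoter windows (408). In the related gene lists described below it was in 0 of 16 windows of other synthesis enzymes and 0 of 17 of sterol sensing. It was in 1 of 13 windows of uptake and transport, 0 of 9 of efflux and esterification and 0 of 14 of SREBP-1 fatty acid genes. CCAAT was found in 5 of 5, with 4 matches in Hmgcs1, 5 in Mvk, 3 in Hsd17b7, 2 in Idi1 and 1 in Insig1, against 37.41% of all windows (12289). A match describes letters only. The 250 bases before the start are shown for 4 genes: Hmgcs1 as the window with the sterol element, Idi1 and Insig1 as genes that were lower in 85% O2, and Hsd17b7 as the gene with the smallest oxygen difference. Each is written 5′ to 3′ on the strand of the gene, with both motifs in capitals (ATTGG is CCAAT on the other strand). Hmgcs1 lies at chr13:119690101-119690350 (+), Idi1 at chr13:8885356-8885605 (+), Insig1 at chr5:28071162-28071411 (+) and Hsd17b7 at chr1:169969206-169969455 (-).
Hmgcs1: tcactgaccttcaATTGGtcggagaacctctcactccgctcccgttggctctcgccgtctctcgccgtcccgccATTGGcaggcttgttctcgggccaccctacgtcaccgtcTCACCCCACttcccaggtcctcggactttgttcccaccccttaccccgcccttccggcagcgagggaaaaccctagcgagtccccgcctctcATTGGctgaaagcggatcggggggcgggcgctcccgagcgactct
Idi1: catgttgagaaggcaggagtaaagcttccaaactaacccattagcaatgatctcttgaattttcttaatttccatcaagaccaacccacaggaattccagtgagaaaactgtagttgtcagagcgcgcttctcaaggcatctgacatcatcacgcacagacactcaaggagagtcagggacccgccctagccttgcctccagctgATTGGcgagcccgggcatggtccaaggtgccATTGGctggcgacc
Insig1: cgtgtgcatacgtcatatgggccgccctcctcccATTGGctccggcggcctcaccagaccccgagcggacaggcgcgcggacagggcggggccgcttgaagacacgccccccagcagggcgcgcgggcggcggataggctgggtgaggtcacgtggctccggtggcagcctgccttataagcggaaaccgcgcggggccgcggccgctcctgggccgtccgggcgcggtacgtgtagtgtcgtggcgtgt
Hsd17b7: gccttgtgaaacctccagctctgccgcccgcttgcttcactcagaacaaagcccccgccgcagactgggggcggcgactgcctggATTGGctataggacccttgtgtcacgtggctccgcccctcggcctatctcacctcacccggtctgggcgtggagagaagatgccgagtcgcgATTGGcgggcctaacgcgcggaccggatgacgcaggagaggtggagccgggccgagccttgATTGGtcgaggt

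Each gene was read from its brightest probe on average, and these 8 lead probes of the 14 lay well above background on 24 of 24 arrays. Values below are relative log2 signals, which are log2 of the processed signal minus the 75th percentile of the array, and differences are differences of these values. Because each probe has its own brightness, levels are compared between groups and not between genes. The lead probes of Idi1 (chr13:8891524-8891583), Insig1 (chr5:28404246-28404305), Mvk (chr5:114910540-114910599), Sqle (chr15:59162688-59162747) and Hsd17b7 (chr1:171883182-171883241) carry mm9 coordinates in the files. That of Fdft1 spans chr14:63765750-63769990, a stretch of 4241 bases for a probe of 60, so it crosses at least 1 intron, and the array design places Hmgcs1 on 13_random. A gene was called changed when limma's adjusted p, by Benjamini-Hochberg over all genes and unnamed probes of the experiment, was under 0.05.

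Between 54.8% and 77.6% of probes lay well above background per array. Slide 1 (54.8% to 57.3%) and slide 2 (67.7% to 73.9%) each held 2 arrays of every NaHS experiment group, and between them 11829 of 33264 genes were higher and 4927 lower on slide 2, with 1 of the 8 genes among them (Hsd17b7, -0.31, slide 2 minus slide 1, limma adjusted p = 0.00141). The 85% O2 arrays were all on slide 4 and the 21% O2 arrays all on slide 3, so oxygen and slide cannot be told apart. Of 12 alveolar type II markers, 9 or 10 lay above background on every array of each group, with Sftpc and Abca3 among them. Slc34a2 was not kept in either experiment. Cxcl15 was not kept in the GYY4137 experiment and lay above background on no vehicle 24 h array. The type II markers kept in both experiments summed to 36.4 to 163 times the array's 75th percentile. Collagen and smooth muscle markers also gave strong signal on the arrays: the 7 fibroblast markers summed to 332 to 1010 and the 6 smooth muscle markers to 657 to 1361 times the array's 75th percentile. In RNA from whole wells, fewer cells of a type and less RNA per cell cannot be told apart.

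The oxygen comparison asks which genes differed between hyperoxia and normoxia in cells given the slow donor. In 85% against 21% O2, 5 of the 8 genes passed the test and all 5 were lower: Idi1, Stard4, Insig1, Sqle and Fdft1. Over the whole table of 34649 genes and unnamed probes, 5.56% were called lower, 10.2% higher and 15.8% either way. The 8 genes were chosen with earlier results of these data known, so setting them beside these shares is a description and no test. Those shares rest on 1925 lower and 5467 calls in all, and leaving out 1 array gave between 787 and 2509 lower and between 2072 and 6776 in all, fewest without replicate 3 of the 85% O2 group. The other 3 genes, Hmgcs1, Mvk and Hsd17b7, did not pass, and all 8 differences were negative. Their median was -0.81, beside a median of 0.07 over all genes tested. The groups did not overlap for 4 of the 8 genes, against 8.34% of all genes whose 85% O2 arrays lay wholly below the 21% O2 arrays. Over all genes, 3542 were called higher and 1925 lower. With median centring this split was 1959 higher and 3351 lower and the median over all genes was -0.08, and with quantile normalization it was 2724 higher and 2581 lower. The members' differences stayed negative under every scaling.

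The early enzyme Idi1 and the carrier Stard4 had the largest oxygen differences of the 8 genes. For Idi1 the relative log2 signal was 3.05, 2.76, 3.18 and 3.11 in 85% O2, against 4.44, 4.20, 4.85 and 3.83 in 21% O2. Every 85% O2 array lay below every 21% O2 array. The difference was -1.30 ± 0.22 (SE, n = 4 each), 2.47-fold lower in 85% O2 (limma adjusted p = 0.00925). Hmgcs1, which makes HMG-CoA early in the pathway, had 5.18, 4.81, 5.16 and 4.71 in 85% O2, against 6.04, 5.49, 6.13 and 5.15 in 21% O2. Replicate 4 of the 21% O2 group lay just below the highest 85% O2 array, so the groups overlapped. The difference of Hmgcs1 was -0.74 ± 0.24 and missed the threshold (limma adjusted p = 0.0707). Mvk had 3.51, 3.46, 3.45 and 3.03 in 85% O2, against 4.15, 4.31, 4.28 and 3.46 in 21% O2. Here too replicate 4 of the 21% O2 group fell among the 85% O2 arrays. Its difference was -0.68 ± 0.21 (limma adjusted p = 0.0626). With the replicate number as a block, both passed, with adjusted p = 0.0288 for Hmgcs1 and 0.0294 for Mvk. Both also passed with median centring and with normexp background correction.

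Fdft1 commits farnesyl diphosphate to sterols and Sqle oxidises squalene, a rate-limiting step. Sqle had 4.32, 3.94, 4.30 and 4.09 in 85% O2, against 5.04, 5.11, 5.22 and 4.79 in 21% O2. All 85% O2 arrays were below all 21% O2 arrays, with a gap larger than the spread inside either group. The difference was -0.88 ± 0.14, 1.84-fold lower (limma adjusted p = 0.00801). Fdft1 had 2.66, 2.84, 2.88 and 2.79 in 85% O2, against 3.11, 3.35, 3.66 and 3.13 in 21% O2. The groups again did not overlap, with a difference of -0.52 ± 0.15, 1.43-fold lower (limma adjusted p = 0.0487). That call did not hold with the replicate block (adjusted p = 0.0502) or without any 1 array other than replicate 1 of the 21% O2 group. It was also lost with quantile normalization, the percentile over detected probes, the deposited table, no filter on dim probes and the mean of probes. Hsd17b7, which acts after the first sterol is formed, had 2.01, 2.0, 2.14 and 2.20 in 85% O2, against 2.19, 2.02, 2.53 and 1.87 in 21% O2. The 85% O2 arrays lay inside the range of the 21% O2 arrays. Its difference was -0.07 ± 0.16, with a 95% interval of -0.42 to 0.29 (limma adjusted p = 0.795).

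For the transport and feedback genes, Stard4 had 1.41, 1.15, 1.11 and 0.98 in 85% O2, against 2.50, 2.48, 2.90 and 1.97 in 21% O2. All 85% O2 arrays were lower. The difference was -1.30 ± 0.20, 2.46-fold lower (limma adjusted p = 0.0070). Insig1 had -0.17, -0.29, -0.54 and -0.74 in 85% O2, against 0.87, 0.70, 1.09 and -0.28 in 21% O2. Only replicate 4 of the 21% O2 group reached into the range of the 85% O2 arrays. The difference was -1.03 ± 0.29, 2.04-fold lower (limma adjusted p = 0.0478). Insig1 lost its call without any 1 array other than replicate 4 of the 21% O2 group, when 3 or 4 of the 8 genes were called. Replicate 4 of the 21% O2 group was its group's lowest array for 7 of the 8 genes, all but Fdft1, and without it 6 of the 8 genes were called, Hmgcs1 and Mvk in and Fdft1 out, with a median of -0.94. Idi1, Sqle and Stard4 stayed called whichever array was left out and under each of the other settings tried.

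**Figure D1:**
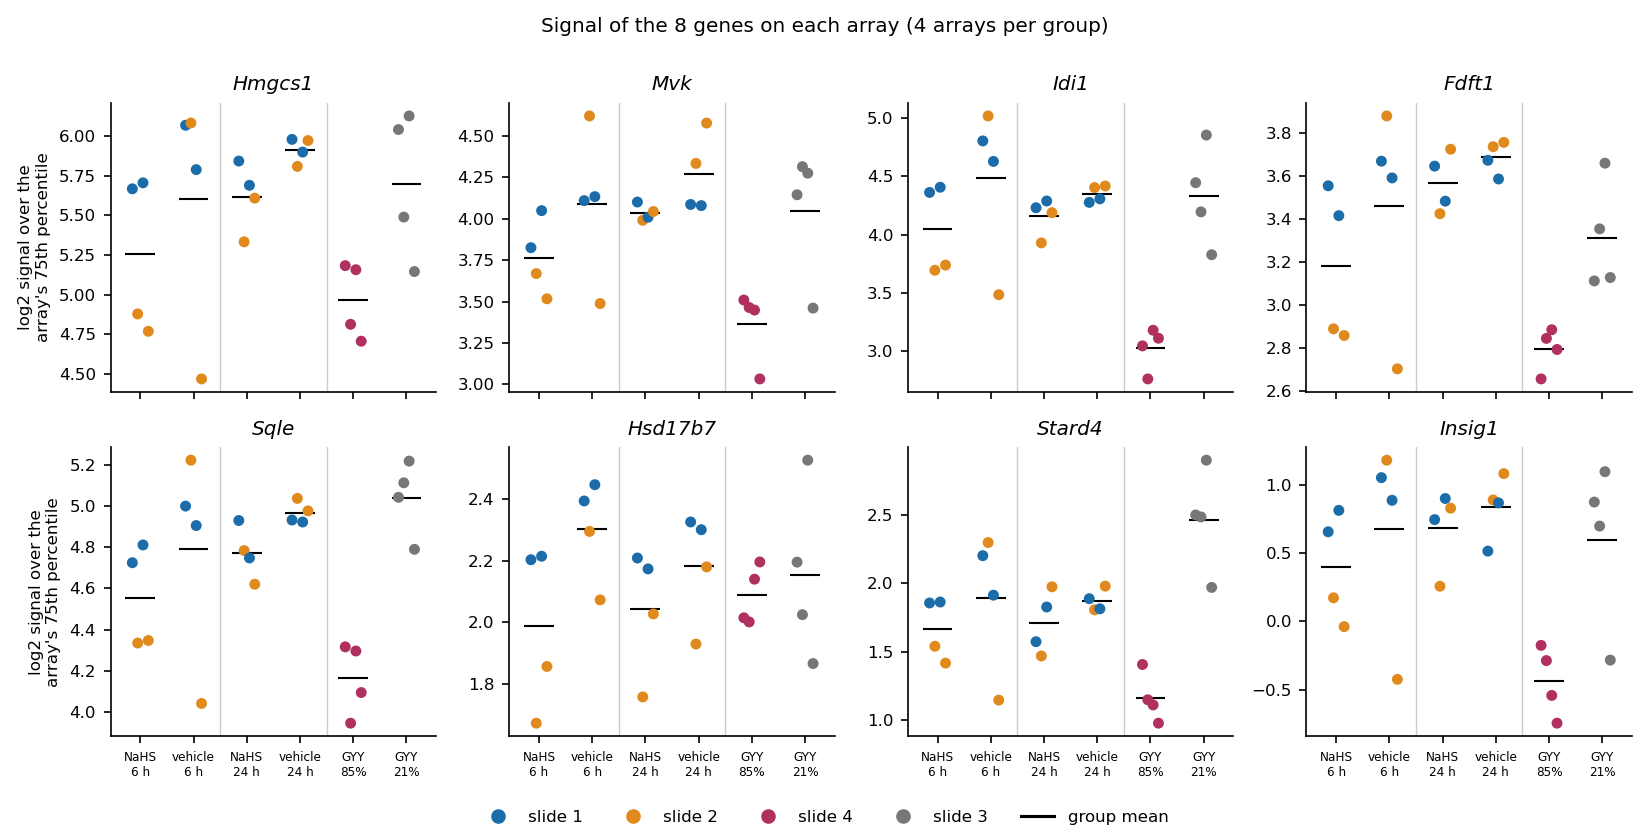
Relative log2 signal of each of the 8 genes on each array, by group (points, coloured by slide) with the group mean (bar); each gene has its own vertical scale. Idi1, Fdft1, Sqle and Stard4 in 85% O2 lie wholly below 21% O2, and the vehicle 6 h group holds 1 low array for every gene.

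Some genes had more than 1 probe. The second probe of Stard4 was also lower in 85% O2 (-0.95 ± 0.21, limma adjusted p = 0.0201), and that of Mvk gave -0.57 ± 0.18 (adjusted p = 0.0612), close to its lead probe. The second probes of Fdft1 (-0.09 ± 0.31) and Hmgcs1 (-0.02 ± 0.31) did not follow their lead probes. These second probes lay above background on 23 and 13 of the 24 arrays, and why they differed from the lead probes was not tested. The other probes of Hsd17b7 gave 0.07 ± 0.20 and 0.02 ± 0.24, so all 3 of its probes were near 0.

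The rest of the synthesis pathway was read from a list of 16 other enzymes. In 85% against 21% O2, 7 of the 16 were lower and 0 were higher, beside 5.56% and 10.2% of all genes. Differences were negative for 15 of 16, with a median of -0.63. Lss, which closes the sterol ring, had a difference of -1.05 ± 0.28 (limma adjusted p = 0.0392). Its signal was 1.01, 0.65, 1.20 and 0.83 in 85% O2, against 2.0, 2.01, 2.66 and 1.24 in 21% O2, without overlap. Cyp51, the lanosterol demethylase, fell by 0.91 ± 0.19 (adjusted p = 0.0185) and Fdps, which makes farnesyl diphosphate, fell by 0.86 ± 0.18 (adjusted p = 0.0180). Sc5d, Lbr and Ebp, all of the late pathway, had differences of -0.71, -0.71 and -0.63 and also passed. The call of the remaining gene was lost with quantile normalization and in the deposited table. Over all 22 enzymes of synthesis, 10 were lower and 21 differences were negative, with a median of -0.66.

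**Figure D2:**
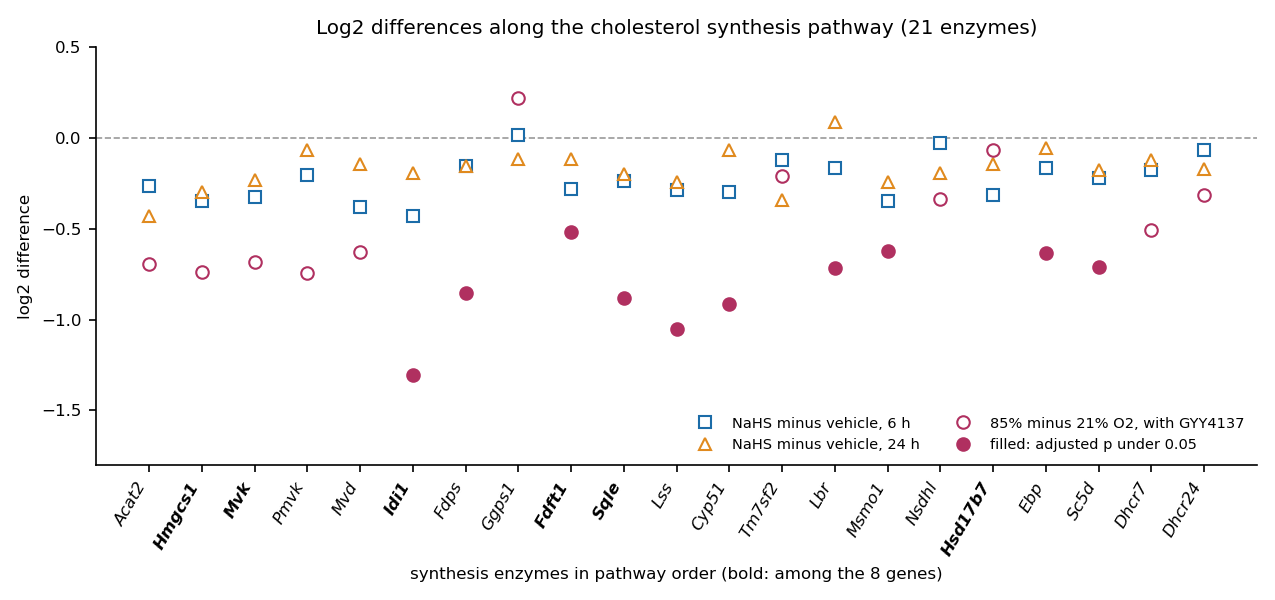
Log2 differences of 21 of the 22 synthesis enzymes in pathway order, for NaHS minus vehicle at 6 h and 24 h and for 85% minus 21% O2 with GYY4137; filled symbols passed the test. The 10 filled circles run from Idi1 to Sc5d, and no square or triangle is filled.

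Of 12 genes that sense sterols, 2 were higher and 2 lower in 85% O2, beside 10.2% and 5.56% of all genes, and the counts are given as a description. The lower genes were Nr1h3, the sterol-activated receptor LXR alpha (-1.13 ± 0.14, limma adjusted p = 0.00328), and Srebf1, which encodes SREBP-1 (-0.55, adjusted p = 0.0386). Scap (0.64, adjusted p = 0.00626) and Rnf139, a ubiquitin ligase of the endoplasmic reticulum (0.49, adjusted p = 0.0169), were higher. Scap had 4.90, 4.87, 4.86 and 4.86 in 85% O2, against 4.23, 4.30, 4.22 and 4.20 in 21% O2, without overlap. Srebf2, which encodes SREBP-2 itself and is named after its value was seen, had 1.59, 1.43, 1.45 and 1.46 in 85% O2, against 1.52, 1.51, 1.46 and 1.33 in 21% O2. Its groups overlapped, with a difference of 0.02.

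In the lists that follow, counts are given as a description, beside 5.56% of all genes called lower and 10.2% called higher. Of 15 genes of uptake and transport, 3 were lower and 1 was higher in 85% O2. Among them, Lrp8, a lipoprotein receptor, and Tmem97, a sterol-regulated membrane protein, fell by 0.95 and 0.93 on the log2 scale, while Npc1, which exports cholesterol from lysosomes, was higher (0.62, adjusted p = 0.0228). Of 9 genes of efflux and esterification, 2 were higher and 0 lower. Abcg1, a cholesterol exporter, had 0.22, 0.52, 0.55 and 1.05 in 85% O2, against -0.63, -1.20, -1.50 and -0.56 in 21% O2. The groups were apart, by 1.55 ± 0.26 (limma adjusted p = 0.00893), and the related transporter Abca7 was higher by 0.71 (adjusted p = 0.0238). Calls of Npc1, Abca7 and Rnf139 were lost with median centring. Of 14 fatty acid genes driven by SREBP-1, 2 were lower, Elovl6 (-1.38, adjusted p = 0.0274) and Fads1 (-0.54, adjusted p = 0.0313), both of which lengthen or desaturate fatty acids, with a median of -0.33 over the 14.

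Some cell markers passed the test between the oxygen groups as well. Over all genes 5.56% were called lower and 10.2% higher, so the counts below are given as a description. Of 10 alveolar type II markers tested, 5 differences were positive and 5 negative (median -0.03), and 1 passed, Lamp3, which was lower in 85% O2 (-1.04, limma adjusted p = 0.00432). For Abca3 the difference was 0.56 (adjusted p = 0.0703), and the summed signal of the alveolar type II list was 36.4 to 48.2 in 85% O2, against 45.7 to 67.2 in 21% O2. The ciliated cell markers summed to 2.19 to 3.67 in 85% O2, against 1.0 to 1.45 in 21% O2, with 2 of 4 tested markers higher, 1 of which (Tppp3) lost its call with median centring. All 7 fibroblast markers had negative differences (median -0.41), with 1 lower, and summed to 427 to 702 in 85% O2, against 693 to 782 in 21% O2. Smooth muscle markers had 1 higher and 1 lower of 6, endothelial markers 1 higher of 6 (Tek, a call lost with quantile normalization, median centring, normexp and the deposited table), and the alveolar type I, macrophage, lymphocyte, neutrophil, club and basal lists had 0 that passed. The part of these shifts in the results above was not tested.

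NaHS against vehicle asks whether the fast donor changed the same genes. At 6 h, 0 of the 8 genes passed, as did 0 of all 33264 genes (0% called by limma, 196 at an unadjusted p under 0.05), and 0 of the 8 had groups that did not overlap (0.271% of all genes lay wholly lower with NaHS). All 8 differences were negative, with a median of -0.30 beside 0.00 over all genes. They ran from -0.43 ± 0.28 for Idi1 through -0.35 ± 0.32 for Hmgcs1, -0.32 ± 0.20 for Mvk, -0.32 ± 0.15 for Hsd17b7, -0.28 ± 0.23 for Fdft1, -0.27 ± 0.31 for Insig1 and -0.24 ± 0.21 for Sqle to -0.22 ± 0.22 for Stard4. In this fit, which leaves slide out, the smallest unadjusted p from limma was 0.0590, for Hsd17b7, and every 95% interval included 0. With slide as a block, 1 of the 8 genes reached an unadjusted p under 0.05 by limma, as did 631 of all genes. After adjustment 0 passed.

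The arrays show where the spread lay. Idi1 had 4.36, 3.70, 4.41 and 3.74 with NaHS for 6 h, against 4.80, 5.02, 4.63 and 3.49 with vehicle. Hmgcs1 had 5.67, 4.88, 5.71 and 4.77 with NaHS, against 6.07, 6.08, 5.79 and 4.47 with vehicle. Replicate 4 of the vehicle group lay below every NaHS array for both genes, and replicates 2 and 4 of the NaHS group, both on slide 2, were the lower NaHS arrays. The same order held for Mvk, which had 3.83, 3.67, 4.05 and 3.52 with NaHS, against 4.11, 4.62, 4.13 and 3.49 with vehicle. Fdft1 had 3.55, 2.89, 3.41 and 2.86 with NaHS, against 3.67, 3.88, 3.59 and 2.70 with vehicle. Sqle had 4.73, 4.33, 4.81 and 4.35 with NaHS, against 5.0, 5.22, 4.91 and 4.04 with vehicle. In both, the vehicle arrays other than replicate 4 stood above all NaHS arrays. Stard4 had 1.85, 1.54, 1.86 and 1.42 with NaHS, against 2.20, 2.30, 1.91 and 1.14 with vehicle. Insig1 had 0.65, 0.17, 0.81 and -0.04 with NaHS, against 1.05, 1.18, 0.88 and -0.42 with vehicle. Hsd17b7 had 2.20, 1.67, 2.21 and 1.86 with NaHS, against 2.39, 2.29, 2.45 and 2.07 with vehicle. For Hsd17b7 the low vehicle array lay inside the NaHS range, and for Stard4 and Insig1 it lay below it.

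Replicate 4 of the vehicle 6 h group was the lowest vehicle array for 8 of 8 genes. The mean of the 8 genes on it was 2.62, against 3.66, 3.82 and 3.54 on the other vehicle arrays, while the NaHS 6 h arrays had 3.36, 2.86, 3.41 and 2.81. Without it the median difference was -0.53, with a range of -0.76 to -0.39, 8 of 8 genes reached an unadjusted p under 0.05 by limma (1028 of all genes did), and 0 passed after adjustment. In that setting all 4 NaHS arrays lay below the other vehicle arrays for 8 of 8 genes, against 1.97% of all genes. That array was singled out by the values of these same 8 genes, so both counts follow in part from that choice. The shares over all genes were not chosen so and are no like yardstick. The 8 genes were measured on the same arrays, so these counts are not 8 separate observations. On the same array the club cell markers summed to 195, against 24.8 to 73.3 on the other vehicle 6 h arrays, the ciliated markers to 5.56, against 1.66 to 2.66, and the alveolar type II markers to 115, against 58.2 to 67.6. Smooth muscle markers summed to 657 on it, against 974 to 1193. The part of these in the difference was not tested. Leaving out any 1 other array of the comparison gave medians between -0.40 and -0.14. Within slide 1 alone the median was -0.20 and within slide 2 alone -0.42, with 8 of 8 negative in each.

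**Figure D3:**
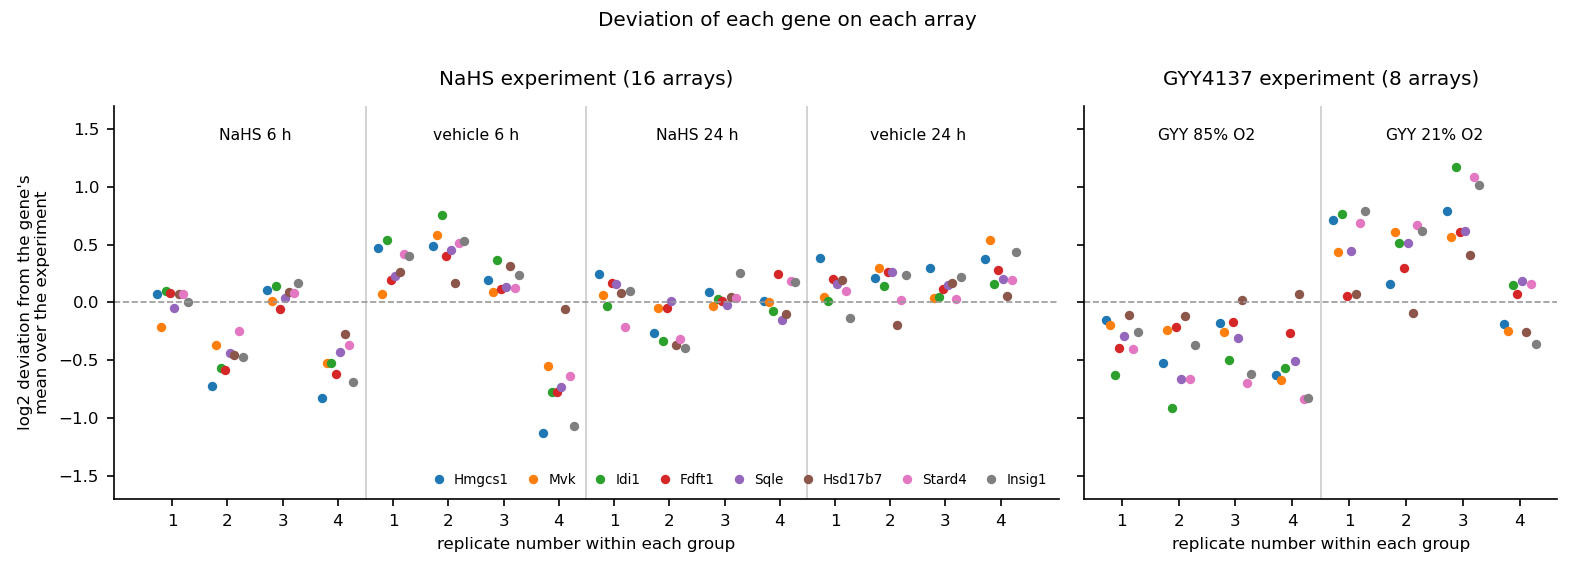
Log2 deviation of each gene on each array from its own mean over the experiment, by replicate number within each group (each point is 1 gene on 1 array). The 8 genes sit together on most arrays, and replicate 4 of the vehicle 6 h group lies lowest of its group for all 8.

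At 24 h, 0 of the 8 genes passed with NaHS against vehicle (0% of all genes called by limma, 736 at an unadjusted p under 0.05). Of the 8, 0 had groups that did not overlap (0.743% of all genes lay wholly lower with NaHS). All 8 differences were again negative but smaller, with a median of -0.18 beside 0.00 over all genes. Hmgcs1 had 5.84, 5.33, 5.69 and 5.61 with NaHS for 24 h, against 5.98, 5.81, 5.90 and 5.97 with vehicle. Mvk had 4.10, 3.99, 4.01 and 4.04 with NaHS, against 4.09, 4.33, 4.08 and 4.58 with vehicle. For both genes only the highest NaHS array reached the vehicle range. Their differences were -0.30 ± 0.32 and -0.23 ± 0.20. Each SE is pooled over all groups of the experiment, so a gene has the same SE at 24 h as at 6 h. Idi1 had 4.23, 3.93, 4.29 and 4.19 with NaHS, against 4.28, 4.40, 4.31 and 4.42 with vehicle, a difference of -0.19 ± 0.28. The NaHS replicate 3 array alone exceeded a vehicle array.

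Sqle at 24 h ran from 4.62 to 4.93 with NaHS, against 4.92 to 5.04 with vehicle (-0.20 ± 0.21), and Stard4 from 1.47 to 1.97 with NaHS, against 1.80 to 1.98 with vehicle (-0.16 ± 0.22). Insig1 had 0.74, 0.26, 0.90 and 0.83 with NaHS, against 0.51, 0.89, 0.87 and 1.08 with vehicle. Here 1 vehicle array lay below all but 1 NaHS array, and the difference was -0.16 ± 0.31. Hsd17b7 ran from 1.76 to 2.21 with NaHS, against 1.93 to 2.33 with vehicle (-0.14 ± 0.15). Fdft1 ran from 3.42 to 3.72 with NaHS, against 3.59 to 3.76 with vehicle (-0.12 ± 0.23). Both pairs of groups overlapped. Replicate 2 of the NaHS 24 h group was the lowest of its group for 7 of the 8 genes, all but Sqle, and without it the median was -0.10. Within slide 1 alone the median was -0.08, and Insig1 turned to 0.13, while within slide 2 alone it was -0.33.

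For all of the 8 genes but Hsd17b7 the vehicle arrays lay closer together at 24 h than at 6 h. In vehicle the SD of Idi1 was 0.07 at 24 h and 0.68 at 6 h, and that of Hmgcs1 was 0.08 at 24 h and 0.77 at 6 h. That of Hsd17b7 was 0.18 at 24 h and 0.17 at 6 h. The 6 h SDs include the low replicate 4 of vehicle, where Idi1 was 3.49, beside 4.63 to 5.02 on the other arrays of that group. The NaHS effect at 24 h minus that at 6 h was between 0.04 and 0.24 for the 8 genes, and 0 passed (0% of all genes called, 355 at an unadjusted p under 0.05 by limma). In vehicle, 24 h against 6 h gave differences from -0.13 (Idi1) to 0.31 (Hmgcs1), with 0 of 8 passing, against 0.61% of all genes. With NaHS, 24 h against 6 h gave 0.04 (Stard4) to 0.39 (Fdft1), with 0 of 8 passing, against 0.0271% of all genes. These comparisons share groups with those above, so their signs are not independent of them.

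**Figure D4:**
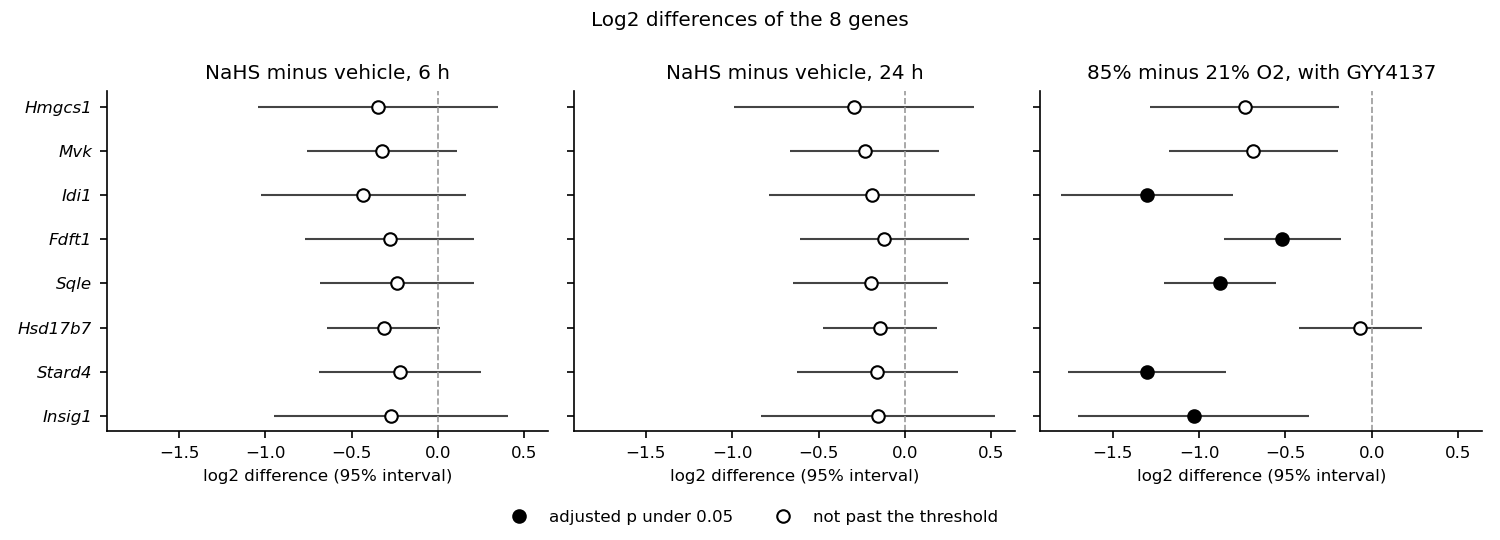
Log2 differences of the 8 genes with 95% intervals from limma, for NaHS minus vehicle at 6 h and 24 h and for 85% minus 21% O2 with GYY4137; filled points have an adjusted p under 0.05. All 24 points lie below 0, and the 5 filled points are all in the oxygen panel.

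Set beside oxygen, the NaHS intervals show what size of change the fit allowed. Each gene's SE was pooled over the 4 NaHS experiment groups, so the 24 h intervals also hold the 6 h spread. For Hmgcs1 the SD was 0.77 in vehicle 6 h, against 0.08 in vehicle 24 h and 0.21 in NaHS 24 h. With only the 24 h groups fitted, 0 of the 8 genes reached an unadjusted p under 0.05 by limma. At 6 h the 95% interval of NaHS against vehicle lay wholly above the oxygen estimate for 4 of the 8 genes, Idi1, Sqle, Stard4 and Insig1, and at 24 h for 5 of the 8, Mvk being the additional gene. For Idi1 the interval was -1.03 to 0.16 at 6 h and -0.79 to 0.40 at 24 h, beside -1.30 for oxygen. For Hmgcs1 it was -1.04 to 0.35 and -0.99 to 0.40, beside -0.74. At 6 h a fall as large as that with oxygen therefore lay inside the interval for Hmgcs1, Mvk and Fdft1. Hsd17b7 had an oxygen difference near 0 (-0.07), so it had no such fall to compare. The oxygen estimates have intervals of their own. At 6 h these overlapped the NaHS intervals for Idi1, Sqle and Insig1 but not Stard4. At 24 h they overlapped for Mvk, Sqle and Insig1 but not for Idi1 and Stard4. The experiments were normalized and fitted apart, so the difference between the NaHS and oxygen effects was not tested.

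The other synthesis enzymes gave 0 of 16 past the test with NaHS at either time, with 15 of 16 differences negative at 6 h (median -0.17) and 14 of 16 at 24 h (median -0.15). The smallest p-values were those of Mvd (-0.38) and Ebp (-0.16) at 6 h and of Acat2 (-0.43) and Tm7sf2 (-0.34) at 24 h. Across the other 4 lists 0 genes passed at either time, and their medians were 0.02 for sterol sensing, 0.08 for uptake and transport, 0.13 for efflux and esterification and -0.07 for SREBP-1 fatty acid genes at 6 h. The corresponding medians at 24 h were 0.00, -0.01, -0.03 and -0.10. At 6 h the genes with the smallest p-values in these lists were Mbtps1 (-0.14) and Mbtps2 (0.14), which cut SREBP, Tmem97 (-0.16) and Npc1 (0.15), Abca1 (0.53) and Soat1 (0.23), and Lpin1 (-0.25) and Acly (-0.22). At 24 h they were Srebf1 (0.13) and Nr1h2 (-0.10), Mylip (0.12) and Stard5 (-0.24), Cyp7b1 (-0.63) and Soat1 (-0.17), and Lpin1 (-0.37) and Acss2 (-0.27). No marker of the 11 cell type lists passed at either time, and the differences of the 5 club cell markers were all negative at 6 h (median -0.95) and all positive at 24 h (median 0.59).

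The genes whose pattern was most like the mean of the 8 genes were found by Pearson's r across the 16 arrays of the NaHS experiment, after slide means were removed. They were Mvd (0.97), Sc5d (0.95), Aacs (0.94), Cyp51 (0.93), Msmo1 (0.92), Lss (0.92), Rdh11 (0.91), Idh1 (0.90), Fdps (0.89) and Fads1 (0.89). Of these 10, 7 belong to the pathway lists, and 11 of 33177 genes compared had an r over 0.9. The median r was 0.81 for the 15 other synthesis enzymes compared and 0.76 for the SREBP-1 fatty acid genes, beside 0.08 over all genes. Without the 2 arrays farthest from the median, replicates 2 and 4 of the vehicle 6 h group, the 10 genes had r between 0.76 and 0.95. These values describe arrays that share slides and time points, and carry no test.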

How the data were processed

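The intensity values are processed signals that the authors' scanner software, Agilent Feature Extraction (version 10.7.3.1 per the submitters' processing notes), made by subtracting background and removing spatial trends, per the file headers. The authors' deposited value table is on a log2 scale. Its column medians equal 5.947 throughout the NaHS arrays (16) and 7.074 throughout the GYY4137 arrays (8), its scaling steps are not given in the sources used here, and it served as an alternative.

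After removal of control spots, 59305 of 62976 remained, from 55681 probes. Spots with an outlier flag (76 to 265 per array) were left out, and 0 spots were saturated. Log2 signals were reduced by the array's 75th percentile. A probe was kept when well above background on at least 4 arrays of an experiment, and a gene was read from its brightest probe on average. The fits then covered 33264 features for NaHS and 34649 for GYY4137. Each experiment was fitted apart by limma 3.58.1 (R 4.3.3), using group means, moderated statistics and Benjamini-Hochberg adjustment at 0.05 (Python 3.11.15, numpy 2.4.6, pandas 2.3.3, matplotlib 3.10.9). The fit was tested on simulated data with the spread of each gene kept. In it 100 genes were changed by each size, and noise was drawn independently, with no slide effect. For NaHS at 6 h it called 38% of genes changed by 1 on the log2 scale and 60% of those changed by 2. For oxygen it called 42% and 76%. Unchanged genes called were 6 for NaHS and 9 for oxygen. The adjusted p depends on how many genes change, and 5467 were called for oxygen in the real data. These shares are therefore not the sensitivity of the comparisons above. The number of arrays limits the precision.

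The 8 genes and all 16 lists (5 of pathway genes and 11 of cell markers) were chosen with earlier results of these data known. Named genes are the 8, up to 6 genes of each pathway list past the threshold by smallest p, the 2 with the smallest p where fewer than 2 passed, the 10 most alike and a few cell markers. Srebf2, Tek and Tppp3 were named after their values were seen. Correlations of deviations between arrays of equal replicate number were 0.183 to 0.257 in the 4 pairs of the GYY4137 experiment. The 12 pairs of unequal number there had -0.216 to 0.165. In the NaHS experiment, where equal numbers share a slide, the 24 equal pairs had 0.537 to 0.754. Unequal pairs on the same slide had 0.419 to 0.702. The main fits used no pairing. The alternatives were other scalings and background correction, the deposited table, other filters and probe rules, slide and replicate blocks, slides alone, and leaving out each array. Values of some single pathway genes are not reported here.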

Additional observations from a re-analysis of the deposited data

Results flagged for a closer look

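Mvk in replicate 4 of the 85% O2 group stood apart, at a relative log2 signal of 3.03 beside 3.45 to 3.51 on the other 3 arrays, by Dixon's test for 4 samples at the 95% level. Of 48 gene and group combinations tested this was 1, and by chance about 1 in 20 would stand apart so. Without that array the oxygen difference of Mvk was -0.57.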

How the results depend on the processing

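In 85% against 21% O2, 3 of the 8 genes were called with no filter on dim probes, where more probes were tested, and between 3 and 6 when 1 array was left out. With median centring and with normexp 7 were called, Hmgcs1 and Mvk being added, and with quantile normalization, the percentile over detected probes, the deposited table and the mean of probes 4 were, without Fdft1. Idi1, Sqle and Stard4 were called in all of these. Among the other pathway genes 19 were called, and between 6 and 21 when 1 array was left out. Hsd17b7 turned to 0.0073 as the mean of its probes and ran from -0.16 to 0.059 without 1 array. The remaining oxygen differences kept their sign. With the replicate number as a block, 6 of the 8 genes were called for oxygen, 0 for NaHS at either time, and 2 other pathway genes for vehicle at 24 h against 6 h, where 0 were called without it. The block ended or made no other call of the 8 genes than those of Hmgcs1, Mvk and Fdft1 given above.

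For NaHS against vehicle no difference of the 8 genes changed sign at 6 h, and at 24 h that of Insig1 did, on slide 1 alone (0.13). Probes other than the lead probes, read singly, did not all follow. The second probe of Fdft1 gave 0.03 at 6 h. At 24 h that of Hmgcs1 gave 0.12 (-0.94 at 6 h), and 1 of the other Hsd17b7 probes gave 0.02. The remaining values of these probes were negative. The differences between times were small and turned sign more often. For the NaHS effect at 24 h minus 6 h, Hmgcs1 gave -0.013 with normexp background correction, Fdft1 -0.018 as the mean of its probes, and on slide 2 alone Sqle gave -0.014 and Insig1 -0.13. Without 1 array the ranges were -0.11 to 0.43 for Hmgcs1, -0.088 to 0.29 for Mvk, -0.10 to 0.29 for Sqle, -0.076 to 0.31 for Stard4 and -0.051 to 0.48 for Insig1. For vehicle at 24 h against 6 h, slide 1 alone gave -0.039 for Mvk, -0.0003 for Fdft1, -0.025 for Sqle and -0.28 for Insig1, and slide 2 alone gave 0.16 for Idi1 and 0.17 for Stard4. Without 1 array the ranges were -0.065 to 0.47 for Hmgcs1, -0.0185 to 0.36 for Mvk, -0.46 to 0.0455 for Idi1, -0.025 to 0.37 for Fdft1, -0.076 to 0.32 for Sqle, -0.27 to 0.12 for Stard4 and -0.20 to 0.33 for Insig1. For NaHS at 24 h against 6 h, slide 1 alone gave -0.12 for Idi1, -0.018 for Hsd17b7 and -0.16 for Stard4, the percentile over detected probes -0.0022 for Hsd17b7 and -0.015 for Stard4, and the mean of probes -0.021 for Hsd17b7 and -0.028 for Stard4. Without 1 array the ranges were -0.0099 to 0.23 for Idi1, -0.0497 to 0.15 for Hsd17b7 and -0.0461 to 0.12 for Stard4. The cause of these changes was not tested. With 4 arrays a group and standard errors of 0.15 to 0.32, NaHS differences of the sizes seen were not called.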

Other observations

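Across the 8 arrays of the GYY4137 experiment, with slide means removed, the 10 genes most like the mean of the 8 genes by Pearson's r were Defb48 (0.98), Ednrb (0.98), Socs5 (0.97), Cers4 (0.97), Macroh2a3 (0.97), Mns1 (0.97), Neb (0.96), Ppnr (0.96), Gm15847 (0.96) and Pmp22 (0.96). None of these 10 belongs to the pathway lists (0 of 10), and 123 of 34636 genes compared had an r over 0.9. Without the 2 arrays farthest from the median, replicates 3 and 4 of the 21% O2 group, their r ran from 0.49 to 0.95. The median r of the 16 other synthesis enzymes was 0.70, beside -0.04 over all genes. Arrays of 1 oxygen level shared a slide, and these values carry no test.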
